A study of Mus musculus with 12 samples.

Results

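The 9 libraries made from injured spinal cord were taken as 1 group and set against the 3 libraries of non-injured (NI) cord. The comparison thus asks which genes changed on average over the injured libraries, each weighted alike, with both severities and both times pooled. These 12 libraries are all those analysed here. Membership of the injured group followed the injury and time in the labels, and no measured value entered it. The group held 3 libraries taken 1 week after hemisection (HS1w), 2 taken 2 weeks after hemisection (HS2w), a single one taken 1 week after full transection (FT1w) and 3 taken 2 weeks after full transection (FT2w). All mice, NI controls included, were adult males carrying Aldh1l1-EGFP on a Swiss Webster background, in which the Aldh1l1 promoter drives a green fluorescent protein in astrocytes. Lesions were placed in the thoracic cord, and the methods describe no sham operation for NI mice. Living eGFP+ cells were sorted from a segment around the lesion, or from the matching segment of NI cord, and their polyadenylated RNA was sequenced. The methods give more animals than libraries, so libraries hold cells of several animals, and p-values measure only the spread between these libraries.

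Astrocytes near a lesion become reactive. They build up intermediate filaments, release protease inhibitors, complement components and growth factors, and take part in the scar that surrounds the damaged tissue. Resident microglia are activated at the same time, and blood cells such as granulocytes, monocytes and mast cells can enter the cord. A sort on 1 fluorescent marker enriches astrocytes but can carry other cells with it, so markers of those cells are given beside the results.

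The libraries held 8270643 to 15562378 reads in the injured group and 12257277 to 13254939 in NI. Over all 12 libraries 1 read corresponded to a normalized count of 0.0612 to 0.134. Aldh1l1, whose promoter marks the sorted cells, had 13.8 to 127 (median 80.4) normalized counts in injured libraries and 82.3, 59.4 and 10.2 in NI replicates 1, 2 and 3. The summed level of 20 astrocyte genes ranged from 2496 to 13900 in injured libraries, against 6648, 8974 and 2801 in NI. Oligodendrocyte genes were abundant throughout (12 genes summing to 56440 to 115200 in injured libraries, against 92700, 55300 and 57700 in NI). Summed over 17 genes, the microglial and macrophage level varied within both groups, with 1264 to 18640 in injured libraries and 1255, 7776 and 10100 in NI. The injured libraries HS1w replicate 3, HS2w replicate 1 and FT1w had the high microglial sums of 17400, 18640 and 14930, as did NI replicates 2 and 3, whereas NI replicate 1 was the lowest of all 12. In such bulk samples, fewer cells of a type and less RNA per cell cannot be told apart.

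**Figure D1:**
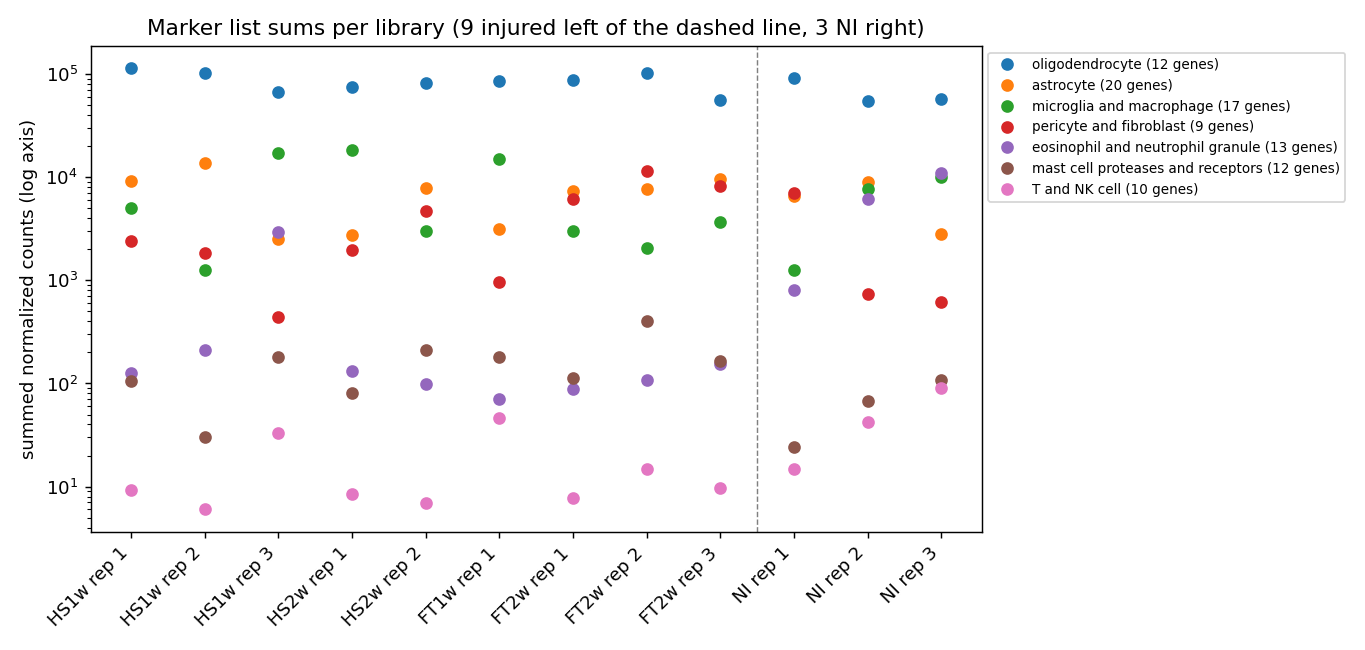
Summed normalized counts of 7 marker lists (log axis) in each library, with the 9 injured libraries left of the dashed line and the 3 NI libraries right of it. Each point is 1 library. The microglial sum was high in HS1w replicate 3, HS2w replicate 1, FT1w and NI replicates 2 and 3, and the granule sum was 2925 in HS1w replicate 3 and at most 210.0 in the other injured libraries, against 812, 6214 and 10940 in NI.

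Few genes passed limma-trend in the pooled libraries, and most of those rose, a balance that some other tests kept and some turned. Of 16388 genes tested, 54 passed at an adjusted p under 0.05 (limma-trend, Benjamini-Hochberg) and a change of at least 2-fold, which is 0.33% of the genes. In that set, 42 rose after injury (0.256%) and 12 fell (0.0732%). The genes that rose had a median log2 fold change of 1.75 and a largest of 4.92, and 17 of them changed at least 4-fold. Those that fell had a median of -1.59 and reached -3.47, with 4 at 4-fold or more. The median over all genes was -0.03. All 9 injured libraries lay above all 3 NI libraries in 40 of the 42 genes that rose, and below them in 9 of the 12 that fell. Over all genes such a separation was met by 323 upwards (1.97%) and 163 downwards (0.995%), so most separated genes did not pass the test.

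**Figure D2:**
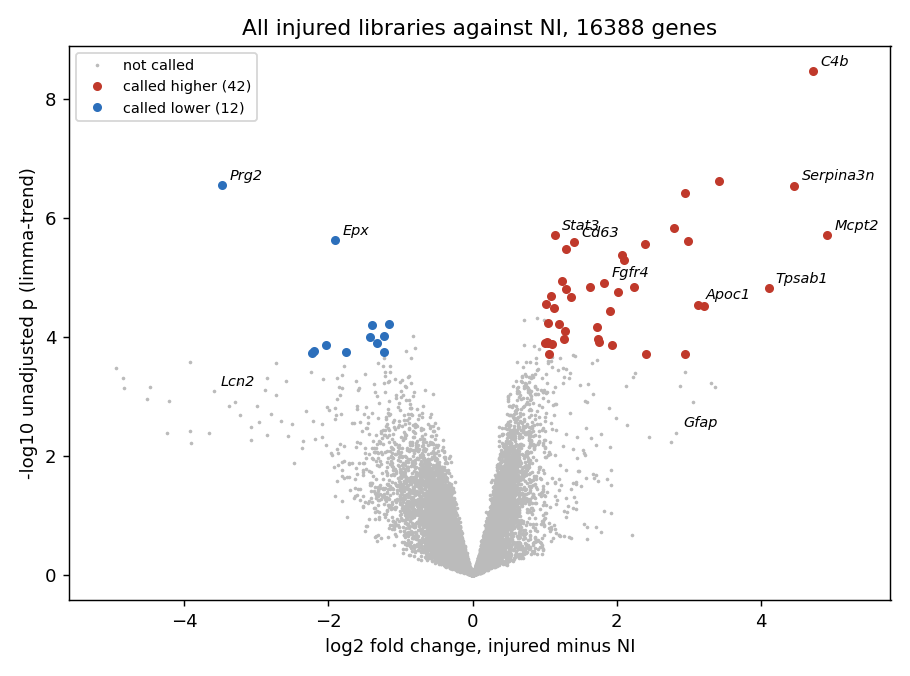
Log2 fold change of injured minus NI (x axis) against -log10 of the unadjusted p from limma-trend (y axis) for 16388 genes, 1 point each. The 42 genes called higher (red) reach a log2 fold change of 4.92, and the 12 called lower (blue) reach -3.47. Lcn2, at -3.59, is a grey point because its adjusted p did not pass.

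The count depended on the test. The quasi-likelihood test of edgeR, run on the reads recovered from the normalized counts, called 53 genes (0.323%), 35 higher and 18 lower. Limma-trend also called 41 of them. The likelihood ratio test of edgeR, the kind of model named in the methods, called 118 genes higher (0.72%) and 197 lower (1.2%), and DESeq2 called 293 (1.79%), 143 higher and 150 lower. With array quality weights in limma-trend 259 were higher and 789 lower. The likelihood ratio test and DESeq2 both included all 54 genes called by limma-trend, and 41 were called by all 4 tests. At an unadjusted p under 0.05, 1222 genes were higher (7.46%) and 1101 lower (6.72%). Counts of list members given below are to be read against these shares of all genes.

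The smallest p belonged to a complement gene. C4b, which encodes the complement component that is cleaved early in the classical pathway and helps to form its convertase, lies on chromosome 17 from 34728380 to 34743882 of GRCm38. It had normalized counts with a lowest of 595 (HS1w replicate 2), a median of 1321 and a highest of 1629 (FT1w) in injured libraries, against 62.5, 31.0 and 27.3 in NI. The groups did not come near each other, and the lowest pair of injured libraries were both from HS1w. The means were 1094 ± 404 in injured libraries and 40.3 ± 19.4 in NI (SD, n = 9 and 3), a ratio of 27.2 (log2 fold change 4.73 ± 0.35 SE, limma-trend adjusted p = 5.59e-05). Its neighbour C4a, on the same strand 65210 bases away, had 4.31 to 11.9 (median 7.03) in injured libraries, against 1.49, 0.894 and 0.576 in NI (log2 fold change 2.07 ± 0.28 SE, limma-trend adjusted p = 0.00489). C4a and C4b are near-identical copies, so how reads were split between them is uncertain, and the annotation lists C4a as a processed transcript. Of 14 complement genes only these 2 were called, whichever of the limma-trend and likelihood ratio tests was used, and the median log2 fold change of the list was 0.70. C1qa, a subunit of the recognition complex that starts the classical pathway, had a log2 fold change of 0.10 (adjusted p = 0.977 from limma-trend), and C3, the central component, had 1.01 (adjusted p = 0.389).

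Protease inhibitor genes of the serpin A3 family rose as well. Serpina3n, a secreted inhibitor of serine proteases that reactive astrocytes produce, had normalized counts with a lowest of 408 (HS1w replicate 3), a median of 1130 and a highest of 1938 (HS1w replicate 2) in injured libraries, against 126, 36.3 and 24.4 in NI. No library overlapped, and HS1w replicate 3 was the injured library nearest to NI replicate 1 (log2 fold change 4.46 ± 0.48 SE, limma-trend adjusted p = 0.00117). Serpina3m, 12472 bases away on the same strand of chromosome 12, had 11.1 to 35.9 (median 19.2) in injured libraries and 2.59, 0.383 and 0.360 in NI (log2 fold change 3.41 ± 0.36 SE, limma-trend adjusted p = 0.00117). In the annotation Serpina3m overlaps Serpina3k and a pseudogene on the same strand, and members of this family resemble each other, so their counts are uncertain. All 7 serpin A3 genes had a positive log2 fold change (median 1.46), 2 were called by limma-trend and 4 by the likelihood ratio test. The additional pair in the likelihood ratio test was Serpina3h and Serpina3i, with adjusted p of 0.0653 and 0.255 in limma-trend.

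Klk8 and Klk9, which encode kallikreins, a family of secreted serine proteases, rose side by side on chromosome 7. Klk8, also called neuropsin and known to cleave adhesion molecules at synapses, had a lowest of 75.7 (HS1w replicate 3), a median of 162 and a highest of 363 (HS1w replicate 2) in injured libraries, against 6.92, 19.98 and 29.4 in NI (log2 fold change 3.21 ± 0.52 SE, limma-trend adjusted p = 0.0186). Klk9, 820 bases upstream on the same strand, had 3.61 to 15.1 (median 9.55) in injured libraries and 1.02, 1.08 and 0.720 in NI (log2 fold change 2.39 ± 0.31 SE, limma-trend adjusted p = 0.00375). The injured libraries of both genes were all above NI, with HS1w replicate 3 lowest in both and HS1w replicate 2 highest. The quasi-likelihood test of edgeR gave Klk8 an adjusted p of 0.0528 and did not call it. Both genes overlap 2310002F09Rik on the opposite strand, and because the library kit does not mark strand the reads of overlapping genes cannot be told apart. Klk6, which oligodendrocytes express strongly, was not called, with 1501 to 7944 (median 5019) in injured libraries, 4283, 861 and 917 in NI and a log2 fold change of 1.55 (adjusted p = 0.193 from limma-trend). Of 6 kallikreins tested, 2 were called.

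The 250 bases upstream of the RefSeq start (GRCm38.p6, each strand 5′ to 3′) are shown for some of the genes named here that had a promoter entry. They are the adjacent pair Klk9 and Klk8, Serpina3n, and Tubb3. Stat3, Fgfr4, Cma1 and Epx, also named here, had an entry but are not shown. In these genes, and in Klk9, Klk8 and Serpina3n, none of the letters searched below was found. In Tubb3 the capitals mark a match on the reverse strand to TGATGNAA, the letters searched for the composite element bound by ATF4.
Klk9, chr7:43791641-43791890, plus strand: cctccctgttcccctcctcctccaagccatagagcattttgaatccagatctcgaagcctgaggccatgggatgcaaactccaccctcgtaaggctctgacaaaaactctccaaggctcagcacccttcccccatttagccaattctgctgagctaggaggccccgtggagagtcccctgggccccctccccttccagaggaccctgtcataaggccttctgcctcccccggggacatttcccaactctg
Klk8, chr7:43797327-43797576, plus strand: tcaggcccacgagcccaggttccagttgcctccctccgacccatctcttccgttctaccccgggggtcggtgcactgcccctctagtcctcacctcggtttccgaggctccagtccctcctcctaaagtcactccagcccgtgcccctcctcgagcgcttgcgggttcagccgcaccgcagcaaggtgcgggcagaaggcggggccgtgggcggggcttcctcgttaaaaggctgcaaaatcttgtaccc
Serpina3n, chr12:104406458-104406707, plus strand: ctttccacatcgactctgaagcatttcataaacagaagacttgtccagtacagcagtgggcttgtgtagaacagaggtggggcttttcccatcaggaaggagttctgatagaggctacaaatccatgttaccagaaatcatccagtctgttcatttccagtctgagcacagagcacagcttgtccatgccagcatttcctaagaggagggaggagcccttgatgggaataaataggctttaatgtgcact
Tubb3, chr8:123411303-123411552, plus strand: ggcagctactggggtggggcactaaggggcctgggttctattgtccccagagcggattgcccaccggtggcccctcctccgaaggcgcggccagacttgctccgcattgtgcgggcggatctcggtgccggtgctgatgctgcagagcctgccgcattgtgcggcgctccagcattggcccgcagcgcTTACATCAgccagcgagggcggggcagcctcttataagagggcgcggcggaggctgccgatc

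In a gapped alignment of the 250-base Klk9 and Klk8 stretches, 153 positions were identical, 55 were mismatches and 84 were gaps. These 4 stretches, and those of the other called genes that had an entry (30 of the 42 higher and 8 of the 12 lower), were searched on both strands for 4 sets of letters. TGATGNAA was present upstream of the RefSeq start in 2 of the 30 genes that rose (6.67%; Myzap and Tubb3), against 2.17% of the 11959 tested genes with an entry. In GENCODE M21 Tubb3 starts at 123411424, inside the stretch shown, and the marked letters lie within the gene. TTCNNNGAA, a STAT site, was upstream of 1 of 30 (3.33%) against 6.07% of all, TGANTCA, an AP-1 site, of 3 of 30 (10%) against 4.82%, and the interferon element, GAAA and GAAA with 2 bases between them, of 0 of 30 against 2.68%. Among the 8 genes that fell, only TGANTCA was found, in 1 (12.5%). With so few promoters these shares are a description and were not tested.

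The mast cell proteases Mcpt2, Tpsab1 and Cma1 were nearly absent from NI and present in every injured library. Mcpt2, a chymase-type protease of mast cells, had normalized counts with a lowest of 7.46 (HS1w replicate 2), a median of 40.7 and a highest of 158 (FT2w replicate 2) in injured libraries, against 0.157, 0.319 and 0.360 in NI (log2 fold change 4.92 ± 0.62 SE, limma-trend adjusted p = 0.00375). These were 5082 reads in 9 injured libraries and 12 in 3 NI libraries. Tpsab1, a tryptase stored in mast cell granules, had 4.34 to 69.9 (median 20.2) in injured libraries and 0.0786, 0.0638 and 0.216 in NI, where 5 reads were counted in all (log2 fold change 4.11 ± 0.62 SE, limma-trend adjusted p = 0.0122). Cma1, the mast cell chymase, had 1.74 to 22.2 (median 8.35) in injured libraries and 0.0786, 0.128 and 0.144 in NI (log2 fold change 2.94 ± 0.58 SE, limma-trend adjusted p = 0.0498). For each of the 3 genes HS1w replicate 2 was the lowest injured library and FT2w replicate 2 the highest, and none of the injured libraries overlapped NI. Cma1 and Mcpt2 lie 97366 bases apart on chromosome 14. Since 1 was added before the logarithm, these fold changes understate the ratio of the levels.

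Of 12 mast cell genes, 3 were called by limma-trend and 5 in edgeR's likelihood ratio test, all higher, and the median log2 fold change was 0.79. At an unadjusted p under 0.05, 5 were higher and 2 lower, the IgE receptor gene Fcer1a and the histamine-forming enzyme gene Hdc. The 5 genes that the likelihood ratio test called were above NI in every injured library, as were 1.97% of all genes. The other pair were Mcpt1 (between 1.21 and 41.2 in injured libraries, against 0.471, 0.128 and 0 in NI) and Tpsb2 (between 1.30 and 26.2 in injured libraries, against 0.0786, 0.128 and 0 in NI). Receptors and other granule genes of mast cells were not called. Kit, the receptor for stem cell factor, had 4.95 to 29.7 (median 17.7) in injured libraries and 3.46, 15.4 and 29.4 in NI (log2 fold change 0.45, adjusted p = 0.769 from limma-trend). Fcer1a, a chain of the high-affinity IgE receptor, had 0.434 to 7.46 (median 2.89) in injured libraries and 5.26, 4.85 and 11.9 in NI (log2 fold change -1.12, adjusted p = 0.286), and Cpa3, the mast cell carboxypeptidase, had 0.434 to 36.5 (median 12.7) in injured libraries and 2.59, 3.13 and 14.7 in NI (log2 fold change 0.96, adjusted p = 0.633). Whether the proteases came from mast cells in the sorted fraction was not tested.

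Among neural genes, a tubulin, an enolase and 1 FGF receptor rose. Fgfr4, a receptor for fibroblast growth factors, had normalized counts with a lowest of 6.64 (FT2w replicate 2), a median of 11.3 and a highest of 14.5 (HS1w replicate 2) in injured libraries, against 3.14, 1.15 and 2.45 in NI (log2 fold change 1.82 ± 0.27 SE, limma-trend adjusted p = 0.0119). The ranges did not overlap, and the log2 fold changes in HS1w, HS2w, FT1w and FT2w were close to each other at 1.93, 1.75, 1.86 and 1.75. The other FGF receptors were at log2 fold changes of 0.27 for Fgfr1, 0.09 for Fgfr2 and -0.51 for Fgfr3, with adjusted p of 0.871, 0.840 and 0.871 from limma-trend. Tubb3, which encodes βIII-tubulin of the neuronal cytoskeleton, had a lowest of 82.2 (HS1w replicate 3), a median of 177 and a highest of 259.7 (FT1w) in injured libraries, against 69.6, 23.9 and 23.4 in NI (log2 fold change 2.24 ± 0.34 SE, limma-trend adjusted p = 0.0122). Eno2, the neuron-specific form of the glycolytic enzyme enolase, had 56.3 to 113 (median 87.8) in injured libraries and 45.3, 19.4 and 20.7 in NI (log2 fold change 1.63 ± 0.25 SE, limma-trend adjusted p = 0.0122). For both genes HS1w replicate 3 was the injured library nearest to NI and NI replicate 1 the highest NI library. In the annotation Tubb3 overlaps Gm20388 on the same strand.

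No other neuronal marker was called. Of 12 neuronal markers Eno2 alone was called and the median log2 fold change was -0.33. Snap25, a synaptic fusion protein, had 7.25 to 55.1 (median 28.3) in injured libraries, against 57.8, 23.4 and 16.8 in NI, and Syt1, a synaptic vesicle calcium sensor, had 0.134 to 2.88 (median 1.56) in injured libraries, against 2.99, 1.79 and 2.16 in NI (adjusted p = 0.799 and 0.652 from limma-trend). Of the 16 FGF receptor and neuronal lineage genes that the study followed, Fgfr4 and Tubb3 were called, and that list was chosen by the study with these libraries in hand. Dcx, a microtubule protein of migrating young neurons, had 2.08 to 6.24 (median 3.88) in injured libraries, against 2.99, 3.83 and 3.60 in NI (log2 fold change 0.06, adjusted p = 0.948). Gad1 and Gad2, which make GABA, had log2 fold changes of -0.44 and -0.38 (adjusted p = 0.557 and 0.280). The progenitor genes Sox2, Nes and Notch1 had -0.68, 0.71 and -0.26, and the neuronal transcription factor genes Pou3f2 and Myt1l had -0.35 and -0.77. None of these 5 passed, the lowest adjusted p being 0.133 for Myt1l, whose 9 injured libraries were all below NI.

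Gfap, the intermediate filament gene most used to mark reactive astrocytes, did not pass. It had a lowest of 102 (HS1w replicate 3), a median of 1055 and a highest of 1631 (HS1w replicate 1) in injured libraries, against 154, 100.2 and 33.2 in NI. HS1w replicate 3 and HS2w replicate 1, both rich in microglial transcripts, lay within the NI range, and every other injured library was above it. The log2 fold change of 2.83 had a standard error of 0.82 and an adjusted p of 0.147 from limma-trend, whereas the likelihood ratio test of edgeR called it (FDR = 0.00528). Of 13 pan-reactive astroglial genes, Serpina3n was the only one called. Lcn2, a lipocalin of that list and also a granule protein of neutrophils, went the other way, with 4.27 to 134 (median 12.2) in injured libraries, against 42.5, 297 and 389 in NI (log2 fold change -3.59, adjusted p = 0.0733). None of 20 astrocyte markers was called (1 at an unadjusted p under 0.05, which was Gfap, and 1 by the likelihood ratio test), with a median log2 fold change of -0.07. Slc1a3, a glutamate transporter of astrocytes, had 0.45 (adjusted p = 0.588).

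Genes of several other functions were among those with the largest rise. Apoc1, an apolipoprotein encoded next to Apoe, had normalized counts with a lowest of 14.6 (HS1w replicate 2), a median of 37.4 and a highest of 121 (HS2w replicate 1) in injured libraries, against 5.97, 3.13 and 2.45 in NI (log2 fold change 3.13 ± 0.51 SE, limma-trend adjusted p = 0.0181). Its log2 fold changes were 2.18, 4.10, 4.14 and 3.11 in HS1w, HS2w, FT1w and FT2w, and the F test of a difference among the 4 injured groups did not pass (adjusted p = 0.387). Of 9 apolipoproteins it was the only one called. Apoe, the lipid carrier of glia, had 957 to 11330 (median 2021) in injured libraries, against 560.2, 1116 and 655 in NI, and was not called (adjusted p = 0.266). Cacng5, a subunit that associates with AMPA-type glutamate receptors, had 14.97 to 55.2 (median 29.9) in injured libraries and 2.83, 2.81 and 2.52 in NI (log2 fold change 2.99 ± 0.38 SE, limma-trend adjusted p = 0.00375). Stk32b, a serine/threonine kinase, had 5.44 to 19.6 (median 11.9) in injured libraries and 1.02, 0.702 and 0.432 in NI (log2 fold change 2.94 ± 0.32 SE, limma-trend adjusted p = 0.00123). Myzap, which encodes a protein of adhering cell junctions, had a lowest of 13.3 (HS1w replicate 3), a median of 34.2 and a highest of 45.7 (FT2w replicate 3) in injured libraries, against 7.70, 3.64 and 2.23 in NI (log2 fold change 2.80 ± 0.34 SE, limma-trend adjusted p = 0.00375). These 3 genes had no overlap between groups and were called whichever single library was left out.

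Aldh1l2, the mitochondrial relative of Aldh1l1 in folate metabolism, had a lowest of 59.6 (HS1w replicate 3), a median of 122 and a highest of 154 (HS2w replicate 2) in injured libraries, against 32.9, 23.1 and 18.4 in NI (log2 fold change 2.10 ± 0.29 SE, limma-trend adjusted p = 0.00551). It belongs to the genes that the transcription factor ATF4 induces when amino acids are short. Of 19 such genes it alone was called by limma-trend, 8 were higher at an unadjusted p under 0.05 (7.46% of all genes were) and none lower, and the median was 0.38. Atf4 itself had 97.5 to 165 (median 119) in injured libraries, against 119, 152 and 163 in NI (adjusted p = 0.678). Stat3, the transcription factor activated by interleukin-6 family cytokines, had a lowest of 238 (FT2w replicate 2), a median of 290.3 and a highest of 339 (FT1w) in injured libraries, against 150.4, 124 and 113 in NI (log2 fold change 1.14 ± 0.14 SE, limma-trend adjusted p = 0.00375). Every injured library was thus above every NI library, and Stat3 was the only 1 of 14 genes of the interleukin-6 and STAT3 list to be called (list median 0.09). Socs3, a feedback inhibitor induced by STAT3, had a log2 fold change of 0.04 (adjusted p = 0.985). In the annotation Stat3 overlaps Stat5a on the opposite strand.

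Cd63, a tetraspanin of late endosomes and lysosomes, had a lowest of 782 (HS1w replicate 3), a median of 1093 and a highest of 1364 (FT2w replicate 3) in injured libraries, against 483, 384 and 370.2 in NI (log2 fold change 1.41 ± 0.18 SE, limma-trend adjusted p = 0.00375). Csf1, the growth factor that maintains microglia and macrophages, had 136 to 242 (median 172) in injured libraries and 90.3, 57.5 and 63.6 in NI (log2 fold change 1.30 ± 0.17 SE, limma-trend adjusted p = 0.00418). St3gal4, a sialyltransferase, had 102 to 206 (median 190.1) in injured libraries and 75.4, 71.8 and 75.1 in NI (log2 fold change 1.24 ± 0.18 SE, limma-trend adjusted p = 0.0119). All 3 were separated between the groups, with NI replicate 1 the highest NI library in each. Cd63 and Csf1 belong to a list of 18 activated phagocyte genes, all of which had a positive log2 fold change (median 1.35, against -0.03 over all genes). Limma-trend called 2 of them and the likelihood ratio test 8, against 0.256% and 0.72% of all genes called higher. At an unadjusted p under 0.05, 11 were higher, against 7.46% of all genes. Spp1, the secreted phosphoprotein osteopontin, had 65.9 to 2474 (median 473) in injured libraries, against 20.8, 38.5 and 72.4 in NI (log2 fold change 3.37, adjusted p = 0.071 from limma-trend), and HS1w replicate 2 fell inside the NI range. Ctsb, the lysosomal protease cathepsin B, had 3353 to 7024 (median 4008) in injured libraries and 2280, 1400 and 1561 in NI (log2 fold change 1.39, adjusted p = 0.0518).

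**Figure D3:**
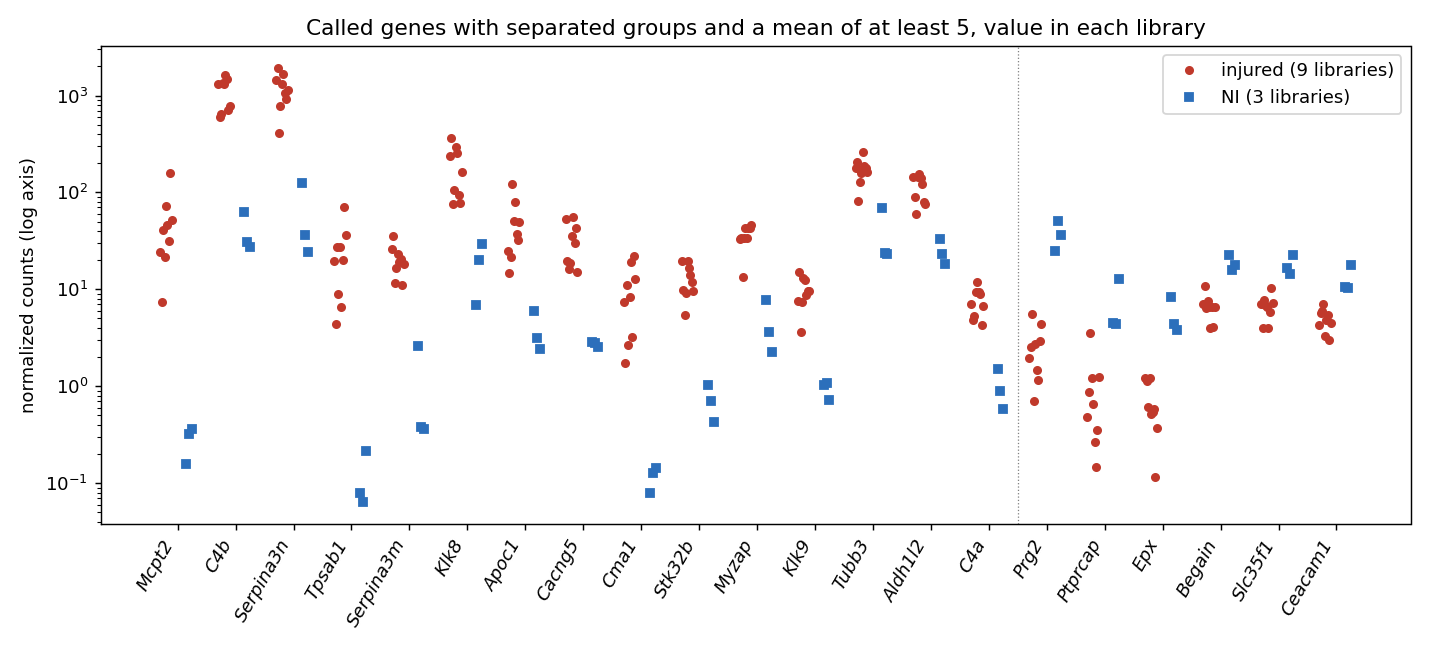
Normalized counts (log axis) of 21 called genes, taken as those with the largest changes among called genes whose injured and NI libraries did not overlap and whose higher mean was at least 5, with 9 injured libraries (red circles) left of 3 NI libraries (blue squares) for each gene and 1 point per library. The 15 genes left of the dotted line rose and the 6 right of it fell. The gap between the 2 sets of points in each gene follows from how the genes were chosen.

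The genes that fell were fewer and included leukocyte genes. Prg2, the major basic protein of eosinophil granules, had normalized counts with a lowest of 0.712 (HS2w replicate 1), a median of 2.52 and a highest of 5.63 (HS1w replicate 3) in injured libraries, against 25.1, 50.7 and 36.2 in NI (log2 fold change -3.47 ± 0.37 SE, limma-trend adjusted p = 0.00117). Epx, the peroxidase of the same granules, had a lowest of 0.117 (FT2w replicate 2), a median of 0.584 and a highest of 1.21 (HS1w replicate 1) in injured libraries, against 8.41, 4.34 and 3.81 in NI (log2 fold change -1.91 ± 0.24 SE, limma-trend adjusted p = 0.00375). Both were below every NI library in all 9 injured libraries. All 13 eosinophil and neutrophil granule genes that were tested had a negative log2 fold change (-4.95 to -1.91, median -3.92), but only these 2 passed limma-trend, while 13 passed the likelihood ratio test and 5 passed DESeq2. The neutrophil genes differed from Prg2 and Epx in which libraries were high. S100a8, a calcium-binding protein of neutrophils, had 579 in HS1w replicate 3 and 9.54 to 59.4 in the other injured libraries, against 173, 1573 and 3291 in NI (log2 fold change -4.86, adjusted p = 0.0664 from limma-trend). Mmp8, the neutrophil collagenase, had 22.6 in HS1w replicate 3 and at most 2.67 in the others, against 2.91, 67.8 and 56.6 in NI (log2 fold change -2.85, adjusted p = 0.149). Chi3l3, a chitinase-like protein of myeloid cells, had 106 in HS1w replicate 3 and at most 6.17 in the others, against 10.7, 181 and 199 in NI (adjusted p = 0.148). NI replicate 1 was thus the lowest NI library for these neutrophil genes, and HS1w replicate 3 exceeded it in each.

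The other leukocyte genes that fell were lymphoid. Ptprcap, a membrane protein associated with the leukocyte antigen CD45, had a lowest of 0.146 (FT2w replicate 1), a median of 0.659 and a highest of 3.55 (HS1w replicate 3) in injured libraries, against 4.48, 4.40 and 12.9 in NI (log2 fold change -2.04 ± 0.39 SE, limma-trend adjusted p = 0.0427). In the annotation it overlaps Coro1b on the same strand and Rps6kb2 on the other. Cd79a, a signalling chain of the B cell receptor, had 0.073 to 2.88 (median 0.606) in injured libraries and 1.81, 11.9 and 12.6 in NI (log2 fold change -2.22 ± 0.44 SE, limma-trend adjusted p = 0.0498). Vpreb3, a component of B cell precursors, had 0 to 1.65 (median 0.285) in injured libraries and 1.18, 6.89 and 12.9 in NI (log2 fold change -2.20 ± 0.43 SE, limma-trend adjusted p = 0.0498). In Cd79a and Vpreb3 HS1w replicate 3 was higher than NI replicate 1, so the groups overlapped. All 9 erythroid and B cell precursor genes had a negative log2 fold change (median -1.52), of which these 2 were called. The summed level of the list in FT2w replicate 3 was 375 and in the other injured libraries 22.8 to 97.7, against 178, 154 and 259.8 in NI, so that FT2w replicate 3 was above every NI library. Most of that sum was the globin gene Beta-s, at 348 in FT2w replicate 3, against 158, 92.2 and 174 in NI. Of 10 T and NK cell genes none was called by limma-trend (3 lower at an unadjusted p under 0.05 and 3 by the likelihood ratio test). Nkg7, a granule membrane protein of cytotoxic lymphocytes, had 0.220 to 12.8 (median 1.48) in injured libraries, against 8.17, 16.9 and 55.8 in NI (adjusted p = 0.0664), and Klrd1, a receptor of such cells, had 0 to 0.979 (median 0.220) in injured libraries and 0.786, 2.81 and 3.02 in NI (adjusted p = 0.0659).

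Among genes that fell with no overlap between the groups and a mean of at least 5 in NI were also Begain, a brain-enriched guanylate kinase-associated protein, Slc35f1, a member of a solute carrier family, and Ceacam1, a cell adhesion molecule. Begain had 4.03 to 10.8 (median 6.57) in injured libraries, against 22.8, 15.6 and 17.6 in NI (log2 fold change -1.39 ± 0.24 SE, limma-trend adjusted p = 0.029). Slc35f1 had 3.99 to 10.2 (median 6.90) in injured libraries and 16.7, 14.2 and 22.6 in NI (log2 fold change -1.33 ± 0.25 SE, limma-trend adjusted p = 0.0427), and Ceacam1 had 3.03 to 7.04 (median 4.83) in injured libraries and 10.6, 10.3 and 17.8 in NI (log2 fold change -1.23 ± 0.24 SE, limma-trend adjusted p = 0.0498). Each was separated between the groups, but each lost its call when NI replicate 2, NI replicate 3, HS1w replicate 1, HS2w replicate 2 or FT2w replicate 1 was left out. Slc35f1 and Ceacam1 lost it in 7 and 8 of the 12 fits, Begain in these 5.

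The 25 called genes outside the naming rule had smaller changes, lower levels or overlapping groups, and are listed here after their values were seen. Those with a log2 fold change from 1.37 to 2.41 were Hspb8, Adamtsl3, Tmod1, Gm1647, Piezo2, Cela1, Mmp11 and Iars. Hspb8, a small heat shock protein, had 8.50 to 41.7 (median 29.0) in injured libraries and 3.54, 11.4 and 1.37 in NI, and Piezo2, a mechanically gated channel, had 8.69 to 33.3 (median 19.1) in injured libraries and 7.39, 4.34 and 3.31 in NI. Iars, the isoleucine tRNA synthetase, had 100.3 to 209.7 (median 185) in injured libraries and 62.1, 58.0 and 61.9 in NI. Those from 1.01 to 1.30 were Slc20a2, Slc39a14, Phyhd1, Galnt6, Thbs3, Gls2, Gpatch2l, Slc26a11, Gstp1, Gng7, Mvp, Cpeb1 and Sik3, among them the phosphate transporter Slc20a2 (between 202 and 389.6 in injured libraries, against 122, 115 and 109.8 in NI) and the zinc transporter Slc39a14 (between 11.3 and 26.2 in injured libraries, against 8.88, 7.21 and 5.83 in NI). The genes that fell were Kel, Nptx1, Tac1 and Tbc1d10c. Tac1, the precursor of substance P, had 0.134 to 2.39 (median 0.781) in injured libraries, against 3.38, 3.32 and 4.68 in NI (log2 fold change -1.42, adjusted p = 0.04 from limma-trend). Of all 54 called genes, 5 had groups that overlapped, which were Hspb8, Cela1, Tbc1d10c, Vpreb3 and Cd79a.

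Interferon-response genes were mostly higher without passing. Of 30 tested, 29 had a positive log2 fold change (median 1.05) and 16 were higher at an unadjusted p under 0.05, against 7.46% of all genes, but limma-trend called none and the likelihood ratio test called 9. The summed level of the list was 5347 in FT1w and 641 to 1537 in the other injured libraries, against 742, 629.9 and 601 in NI, so that FT1w stood apart and HS2w replicate 2 lay within the NI range. The F test among the injured groups called 5 of the 30, against 0.201% of all genes. Without the single FT1w library that test called 0 genes. Irf7, the transcription factor that amplifies the type I interferon response, had a lowest of 25.9 (HS2w replicate 2), a median of 65.5 and a highest of 183 (FT1w) in injured libraries, against 18.9, 11.9 and 11.6 in NI, with no overlap (log2 fold change 2.12, adjusted p = 0.071 from limma-trend). Ifit1, an antiviral RNA-binding protein, had 9.74 to 72.7 (median 32.6) in injured libraries and 10.9, 4.98 and 3.89 in NI (log2 fold change 2.22, adjusted p = 0.0664), and HS2w replicate 2 lay below NI replicate 1. MHC class I genes had a median of 0.71 with none called (3 of 12 at an unadjusted p under 0.05 and 1 by the likelihood ratio test), and H2-D1, a class I heavy chain, had 256 to 1252 (median 354) in injured libraries, against 122, 159 and 187 in NI (adjusted p = 0.137). Nlrc5, which activates class I genes, had 8.67 to 49.3 (median 12.8) in injured libraries and 6.05, 6.19 and 8.42 in NI (adjusted p = 0.302). MHC class II genes had a median of -0.49 with none called (0 of 9 at that unadjusted level and 0 by the likelihood ratio test). H2-Aa and H2-Eb1, class II chains, reached 547 and 595 in the FT1w library, against at most 123 and 128 in NI. Of 19 chemokine genes none was called (3 higher at that unadjusted level and 2 by the likelihood ratio test). Ccl5 and Cxcl10 were above NI in all injured libraries but did not pass, with log2 fold changes of 2.75 and 1.64 and adjusted p of 0.172 and 0.157.

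Markers of microglia, oligodendrocytes and their progenitors, ependyma, pericytes and endothelium were not called by limma-trend. For microglia and macrophages, 0 of 17 passed (also 0 at an unadjusted p under 0.05 and 0 by the likelihood ratio test), with a median log2 fold change of 0.12. Tmem119, a surface protein of resident microglia, had 13.4 to 259 (median 22.1) in injured libraries, against 12.9, 247 and 310.2 in NI, and Tyrobp, a myeloid signalling adaptor, had 70.9 to 935 (median 230.0) in injured libraries and 64.7, 214 and 346 in NI. For oligodendrocytes 0 of 12 passed by limma-trend and by the likelihood ratio test (2 higher at an unadjusted p under 0.05, the myelin tight junction gene Cldn11 and the cytoskeletal gene Ermn). Cldn11 was above NI in every injured library, with 2247 to 4439 (median 3357), against 2191, 1685 and 1671 in NI (log2 fold change 0.80, adjusted p = 0.148). The log2 fold change was 0.23 for Mog, -0.24 for Sox10 and 0.60 for Mbp. Oligodendrocyte progenitor genes had a median of -0.88, 2 were lower by the likelihood ratio test, and 5 of 10 were lower at an unadjusted p under 0.05 (6.72% of all genes were), Olig2 among them (between 20.3 and 43.2 in injured libraries, against 33.2, 97.5 and 80.4 in NI). Ependymal cilium genes had a median of -0.99 with 6 of 12 lower at that level and 1 by the likelihood ratio test, and Ccdc153 of that list had 1.09 to 17.1 (median 3.20) in injured libraries and 3.77, 45.6 and 21.6 in NI. For pericytes and fibroblasts and for endothelium 0 genes passed (0 also at an unadjusted p under 0.05 and by the likelihood ratio test), with medians of 0.50 and 0.20.

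Lists of cell functions gave these results. Of 20 cell cycle genes 7 were lower at an unadjusted p under 0.05 (6.72% of all genes were) and none higher (median -0.72). Neither limma-trend nor the likelihood ratio test called any of them. Top2a, a topoisomerase of dividing cells, had 2.45 to 32.6 (median 8.25) in injured libraries, against 12.3, 44.6 and 75.7 in NI (adjusted p = 0.269). Proteoglycans and tenascins, matrix components of the glial scar, had a median of -0.43, with 0 called (1 lower by the likelihood ratio test, and 1 higher and 3 lower at an unadjusted p under 0.05). Vcan, the proteoglycan versican, had 25.9 to 119 (median 41.5) in injured libraries, against 66.2, 119.6 and 124 in NI (adjusted p = 0.180). In cholesterol metabolism, Insig1, which retains the sterol sensor in the endoplasmic reticulum, was lower in all injured libraries (between 92.0 and 146, against 167, 274 and 205 in NI) and passed the adjusted p (log2 fold change -0.92, adjusted p = 0.0498) but not the 2-fold threshold. Abcg1, a sterol exporter, was above NI in all injured libraries (between 479 and 871, against 445, 298 and 313 in NI) without passing (adjusted p = 0.0636). Lysosomal genes had a median of 0.62 and 7 of 20 were higher at an unadjusted p under 0.05 (7.46% of all genes were). Cd63 was the one called by limma-trend. Immediate early, glutathione and NRF2, iron and metallothionein, and glucocorticoid genes had medians of -0.44, 0.12, 0.59 and 0.03, and none was called by limma-trend. At an unadjusted p under 0.05 they held 1, 3, 5 and 0 genes in either direction, and the likelihood ratio test called 0, 0, 1 and 0.

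Because the pooled test favours genes that move alike in its subgroups, the agreement of the called genes among them is a description. All 54 had the same sign in HS1w, HS2w, FT1w and FT2w, and 44 changed at least 2-fold in each. When each group was tested alone against NI, 42 of the 54 passed in none, 9 in a single group, 1 in 2 groups, Apoc1 in 3 and C4b in 4. These comparisons share the NI libraries. Examples called only when the injured libraries were pooled were Serpina3m, Stat3, Cd63, Klk9, Csf1 and St3gal4. An F test of equal means in the 4 injured groups called none of the 54 (lowest adjusted p 0.387, and 1 with an unadjusted p under 0.05), which does not show that their means were equal.

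**Figure D4:**
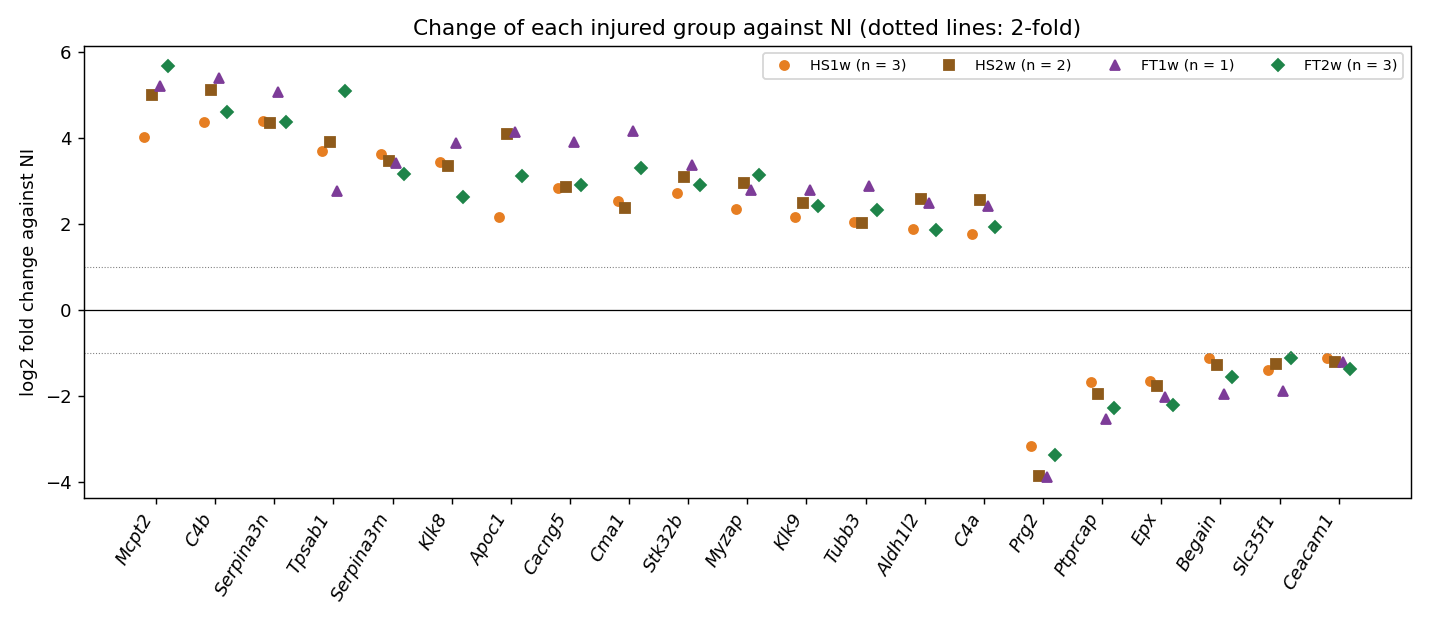
Log2 fold change of each injured group against the 3 NI libraries (y axis) for the same 21 genes (x axis), from limma-trend, with dotted lines at 2-fold. HS1w has 3 libraries, HS2w 2, FT1w 1 and FT2w 3. All 4 points lie on the same side of 0 and beyond 2-fold in every gene shown, from -3.90 for Prg2 in FT1w to 5.67 for Mcpt2 in FT2w. The shared side of 0 follows from how the genes were chosen.

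Across all genes the F test called 33 (0.201%), and the quasi-likelihood F test of edgeR also called 33, of which 27 were shared. None of the 33 was called in the pooled comparison. FT1w was the highest injured group in 28 of them and the lowest in 5, and this group is a single library. Iigp1, an interferon-induced GTPase, had 575 normalized counts in the FT1w library and 4.89 to 15.7 in the other injured libraries, against 5.82, 2.17 and 2.09 in NI (F test adjusted p = 0.00953 from limma-trend). Gbp1, a guanylate-binding protein, had 83.9 in FT1w and at most 2.15 in the others, against 0.864, 0.511 and 0.936 in NI. Susd4, a complement regulator, had 0.403 in FT1w, the value of 3 reads, and 47.8 to 105 in the other injured libraries, against 70.4, 33.5 and 37.3 in NI. Jakmip1, a microtubule-associated protein, behaved in the same way, with 0.403 in FT1w and 27.1 to 75.0 in the others, against 90.2, 56.0 and 57.3 in NI. Without the FT1w library the limma-trend F test called 0 genes, with 477 at an unadjusted p under 0.05. Without any other single library it called 9 (without HS1w replicate 1) to 46 (without HS1w replicate 3), and fewer than 20 also without NI replicate 2 or 3 or any FT2w library.

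Single libraries decided how many genes passed. Leaving out NI replicate 1 raised the count to 345 (113 higher and 232 lower), leaving out HS1w replicate 3 raised it to 215 (77 higher and 138 lower), and leaving out FT2w replicate 3 raised it to 91. Leaving out NI replicate 3 lowered it to 10 and NI replicate 2 to 24, and FT2w replicate 1, HS1w replicate 1 and HS2w replicate 2 gave 26, 30 and 32. HS1w replicate 3 was the lowest injured library in 21 of the 42 genes that rose and the highest in 7 of the 12 that fell. Of the 54 genes, 51 were still called without NI replicate 1 and all 54 without HS1w replicate 3. The genes called whichever library was left out were C4b, Serpina3n, Serpina3m, Mcpt2, Cacng5, Stk32b, Myzap, Prg2 and Epx. Tpsab1, Klk8, Apoc1, Tubb3, Fgfr4, Eno2 and St3gal4 lost their call without NI replicate 2 and without NI replicate 3, and Klk9, Aldh1l2, C4a, Cd63, Csf1 and Stat3 without NI replicate 3 only. Cma1 lost it in 7 of the 12 fits, and Ptprcap, Cd79a and Vpreb3 in 9 each.

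**Figure D5:**
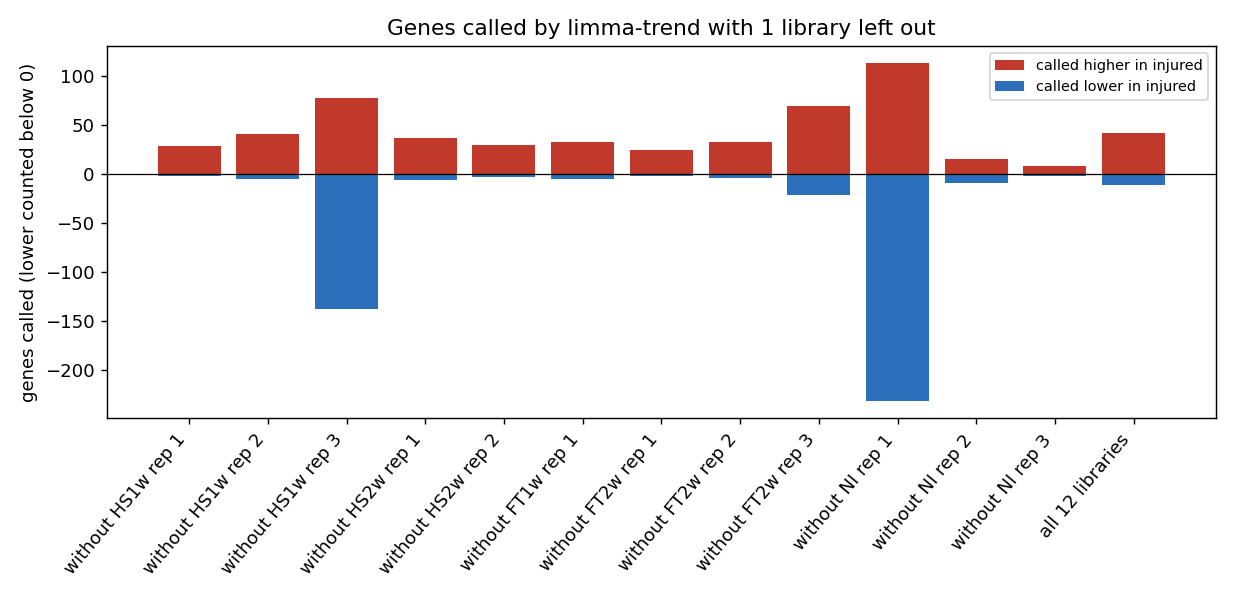
Number of genes called higher (red, above 0) and lower (blue, below 0) in injured libraries by limma-trend when 1 library was left out, with the fit on all 12 libraries at the right. Without NI replicate 1 there were 113 higher and 232 lower, against 42 and 12 with all libraries, and the count was lowest at 10 without NI replicate 3.

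With the microglial level of each library (the log2 of the sum of its 17 markers) added to the model, 370 genes were called, 125 higher and 245 lower, and all 54 genes were among them. With the pericyte and fibroblast level added, 135 were called and 50 of the 54 were among them. When the injured libraries were restricted to hemisection 1 gene was called, and to transection 12. Restricted to 1 week 0 were called (1502 genes at an unadjusted p under 0.05), and restricted to 2 weeks 49, of which 30 belonged to the 54. All 54 genes kept their sign in each of these fits. In the restricted fits this was fixed beforehand for the 49 genes whose injured and NI libraries did not overlap.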

How the data were processed

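RNA of eGFP+ cells sorted from spinal cord was sequenced as 12 libraries, made with SMARTer and Nextera kits, which do not mark strand. The deposited signal (normalized counts per gene) was made by alignment with TopHat2 2.0.9 to mm10, counting with HTSeq 0.5.4p3 and library-size scaling with edgeR 3.3.6. These steps are from the methods and processing notes, by which the authors also removed weakly expressed genes. The values summed to 846082 to 1133490 per library, so they were not scaled to equal totals. Their ratio to values scaled with edgeR's TMM factors, which adjust library sizes, was nearly constant at 1.00095 to 1.00116. The deposited values were thus close to TMM-scaled counts. Whole reads were recovered from the deposited values (100% within 1e-06). Genes averaging 0.5 or more in any group were kept (16388 of 16389), log2(value + 1) was fitted with limma-trend (limma 3.58.1, R 4.3.3) as injured against NI, and p-values were adjusted over all genes (Benjamini-Hochberg). Fold changes are on that log2(value + 1) scale. Groups came from the labelled injury and time. edgeR 4.0.16 and DESeq2 1.42.0 were alternatives on the recovered reads, and 8 adjusted p-values that DESeq2 did not give were left out.

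Genes named were up to 15 called in each direction whose libraries did not overlap and whose higher mean was at least 5, up to 4 called members of each list (otherwise the 2 with the smallest p), and the genes named by the study, and others are marked where named. A few of the genes so chosen were left out and are not reported. The genes and lists were chosen with earlier results of these data known. Positions are from GENCODE M21 (GRCm38) and upstream sequences from RefSeq (GRCm38.p6). On simulated counts of 16388 genes, limma-trend recovered 12 of 100 genes changed 2-fold and 67 of 100 changed 4-fold. The likelihood ratio test recovered 21 and 80. False calls were 6 of 85 for limma-trend, 6 of 90 for the quasi-likelihood test and 31 of 132 for the likelihood ratio test. The counts were drawn for each gene independently from a negative binomial, with a dispersion estimated from these libraries. Shifts shared by many genes of a library were thus absent from the simulation, so these rates may not hold for the real libraries.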

Additional observations from a re-analysis of the deposited data

Results flagged for a closer look

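Among 99 named genes, 16 had 1 of the 9 injured libraries far outside the other 8 by Dixon's criterion, where chance flags about 1 in 20 groups. Of these flags, 6 fell on genes named because they passed the F test among injured groups, so they follow from that choice and the total cannot be set against chance. HS1w replicate 3 was the extreme library in 9 of them. It was the lowest for Myzap (13.3, against 7.70, 3.64 and 2.23 in NI) and St3gal4 (102.1, against 75.4, 71.8 and 75.1 in NI). It was the highest for the leukocyte genes Ptprcap (3.55), Cd79a (2.88), Vpreb3 (1.65), Nkg7 (12.8), Lcn2 (134), Chi3l3 (106.1) and Mmp8 (22.6), the direction of the NI libraries in each. FT2w replicate 3 was the lowest for Slc11a2, an iron transporter (33.1). FT1w was the highest for Gm15070 (49.4), Gbp1 (83.9), Mrap2 (53.5) and Iigp1 (575.4) and the lowest for Susd4 (0.403) and Jakmip1 (0.403).

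The 6 genes with FT1w at an extreme were named for their F test among the 4 injured groups (limma-trend), whose adjusted p, given as a description, was 0.000594 for Gm15070, 0.00235 for Gbp1, 0.00315 for Susd4, 0.00366 for Mrap2, 0.00611 for Jakmip1 and 0.00953 for Iigp1. FT1w has 1 library, whose spread is assumed to be that of the other groups, so the difference of this library and a difference of its condition cannot be told apart.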

How the results depend on the processing

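The 54 genes kept their sign under every alternative in which they were tested. For the 49 whose injured and NI libraries did not overlap, leaving libraries out could not change the sign. Of the 54, 9 were called whichever library was left out, but the count of calls moved widely. It was 33 when each library was scaled to the same total, which set the median of all genes to -0.18 (against -0.03), 1048 with array quality weights, 370 with the microglial level and 135 with the pericyte level as a covariate, 315 with edgeR's likelihood ratio test and 293 with DESeq2. It was 1 with hemisection only, 12 with transection only and 0 with 1 week only, where fewer libraries were compared (limma-trend, 1502 genes at an unadjusted p under 0.05). Leaving out single libraries gave 10 (NI replicate 3) to 345 (NI replicate 1). In the likelihood ratio test, 627 were called without NI replicate 1 and 803 without HS1w replicate 3, 2 fits chosen after seeing the data. The cause of these shifts was not tested.

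The count of genes that differed among the injured groups was 33, and it was 19 with a pseudocount of 0.25, 53 with a pseudocount of 4, 20 with equal totals, 33 with edgeR's quasi-likelihood F test, and 0 (without FT1w, 477 genes at an unadjusted p under 0.05) to 46 (without HS1w replicate 3) when a library was left out. Whether the replicate numbers in the labels pair the libraries is not known. Deviations from the group means correlated with a median r of 0.0059 over 15 pairs with the same number, 5 of them over 0.1. Over 30 pairs with different numbers the median r was -0.043, with 13 over 0.1. In a group of 2 libraries the deviations mirror each other, so these correlations cannot decide it. With a replicate block, and without FT1w, which carries no number, 43 genes were called. In the simulation, where genes varied independently, limma-trend recovered 12% of 2-fold changes. Their median estimate of 0.86 (log2) lay below the 2-fold threshold that a call required, so a gene that was not called may have changed by that much.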

Other observations

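Some called genes lie close together in the genome. Of the 54, 10 pairs were within 200000 bases of each other on GRCm38, among them Klk9 and Klk8 (820 bases apart), Serpina3m and Serpina3n (12472), C4b and C4a (65210) and Cma1 and Mcpt2 (97366), which rose together. Cela1, an elastase, and Galnt6, an enzyme that starts O-glycosylation, are 3892 bases apart on chromosome 15 and both rose. Mmp11, a matrix metalloproteinase that rose, and Vpreb3, which fell, are 6561 bases apart on chromosome 10. Another gene overlapped 27 of the 54 in the annotation, on the opposite strand in 17, and for these the counts may hold reads of the other gene. Neither the close pairs nor the overlaps were counted over all tested genes, so neither is shown to be particular to the called genes.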
